A study of Sus scrofa with 6 samples.

Results

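The MCM genes described here were found by their protein description: every row of the expression table whose best protein match is called a DNA replication licensing factor MCM, with 1 row kept per gene. The rule found 6 rows for 6 genes among 20523 transcript rows, namely MCM2, MCM3, MCM4, MCM5, MCM8 and MCM9. They include 4 of the 6 subunits of the replicative ring; MCM6 and MCM7 were not analysed here, and MCM8 and MCM9 are relatives that are not part of that ring. The tested embryos, called QQ, carry both quantitative trait nucleotides of the vertnin gene VRTN on both chromosomes, and the embryos they were set against are wild type (qq, here WT). All are whole Large White pig embryos of 17.5 to 18.0 days post coitum, 3 per genotype, each sequenced as 1 messenger RNA library. VRTN is tied to the number of thoracic vertebrae, and the study compared the genotypes at the age when somites form.

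The proteins MCM2 to MCM7 form a ring-shaped helicase that unwinds DNA at replication forks. Before S phase the origin recognition complex, CDC6 and CDT1 load the ring onto DNA, a step called licensing, and geminin blocks CDT1 so that no origin is licensed again in the same cycle. In S phase the kinase CDC7 with DBF4, and then CDC45 and the GINS complex, turn the loaded ring into an active helicase. MCM genes are known targets of E2F transcription factors and are used as markers of dividing cells. MCM8 and MCM9 form a complex of their own that acts in homologous recombination and the repair of cross-linked DNA.

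Libraries held 12.2 to 13.5 uniquely mapped reads, counted in units of 1000000. WT replicate 3 stood apart on the first principal component, with 63.0% of the variance. There QQ replicates 1 to 3 lay at -8.55, -27.9 and -28.4, WT replicates 1 and 2 at 8.51 and 0.435, and WT replicate 3 at 55.9. QQ replicate 1 was nearer to WT replicates 1 and 2 than to the other QQ libraries. Its chi-square per degree of freedom was 7.79 and 7.54 against WT replicates 1 and 2. It was 18.1 and 17.9 against QQ replicates 2 and 3. Markers of embryonic tissues were present, with SOX2 of the neural tube at 33.1 ± 2.85 RPKM in QQ and 31.2 ± 4.02 RPKM in WT embryos, and the mesodermal factor TWIST1 at 92.3 ± 0.852 RPKM in QQ and 100.3 ± 5.10 RPKM in WT embryos (SD, n = 3 each). RPKM is reads per 1000 bases of transcript and per 1000000 mapped reads. Erythroid and hepatic or yolk sac markers had wide ranges. The summed RPKM of 3 erythroid genes ran from 0.436 to 3.90 in QQ and from 3.40 to 8.43 in WT libraries, and HBB, the beta-globin, had 0 to 11 reads in QQ and 12 to 28 in WT libraries. That of 4 hepatic and yolk sac genes ran from 32.1 to 505 in QQ and from 29.5 to 237 in WT libraries. That of 2 endothelial genes ran from 0.676 to 1.01 in QQ and from 0.236 to 0.591 in WT libraries, without overlap. The sum of 4 trophoblast genes ran from 16.3 to 17.5 in QQ and from 15.9 to 18.9 in WT libraries, with 1 to 6 reads of the placental aromatase CYP19A1 in QQ libraries and 0 to 3 in WT libraries. The part of these tissues in the results below was not tested.

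MCM2 and MCM3 had lower values in every QQ embryo than in any WT embryo, but neither passed the test over all genes. MCM2, the subunit that also binds histones H3 and H4, stood at 188.8, 187.2 and 187.03 RPKM in QQ replicates 1 to 3, against 205, 200.4 and 226 RPKM in WT replicates 1 to 3. The QQ libraries were nearly equal and lay below all WT libraries, and WT replicate 3 was the highest. Its level was 187.7 ± 0.957 RPKM in QQ and 210.4 ± 13.4 RPKM in WT embryos (SD, n = 3 each). The log2 fold change of MCM2 was -0.26 ± 0.11 (SE), which is -16.6% with a 95% interval from -29.9% to -0.854% (edgeR quasi-likelihood test, unadjusted p = 0.0416, adjusted p = 0.235).

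MCM3, which in yeast contacts the origin recognition complex and CDC6 during loading, had the widest gap. It stood at 103.3, 111.8 and 108.01 RPKM in QQ replicates 1 to 3, against 119.6, 130.2 and 144.7 RPKM in WT replicates 1 to 3. The groups did not overlap, and the WT libraries were spread over a wider range than the QQ libraries. The group levels were 107.7 ± 4.28 RPKM in QQ and 131.5 ± 12.6 RPKM in WT embryos (SD, n = 3 each). The log2 fold change of MCM3 was -0.39 ± 0.12 (SE), or -23.5% with a 95% interval from -36.3% to -8.21% (edgeR, unadjusted p = 0.00870, adjusted p = 0.233). No tested row of the table had a smaller adjusted p, but other rows shared this value. Among them was EXOSC5, with a smaller unadjusted p than MCM3 (edgeR, 0.00772). Without WT replicate 3 the log2 fold changes of MCM2 and MCM3 were -0.18 and -0.29, with adjusted p of 0.410 and 0.293. In whole embryos, fewer dividing cells and less of these messages per cell cannot be told apart.

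**Figure D1:**
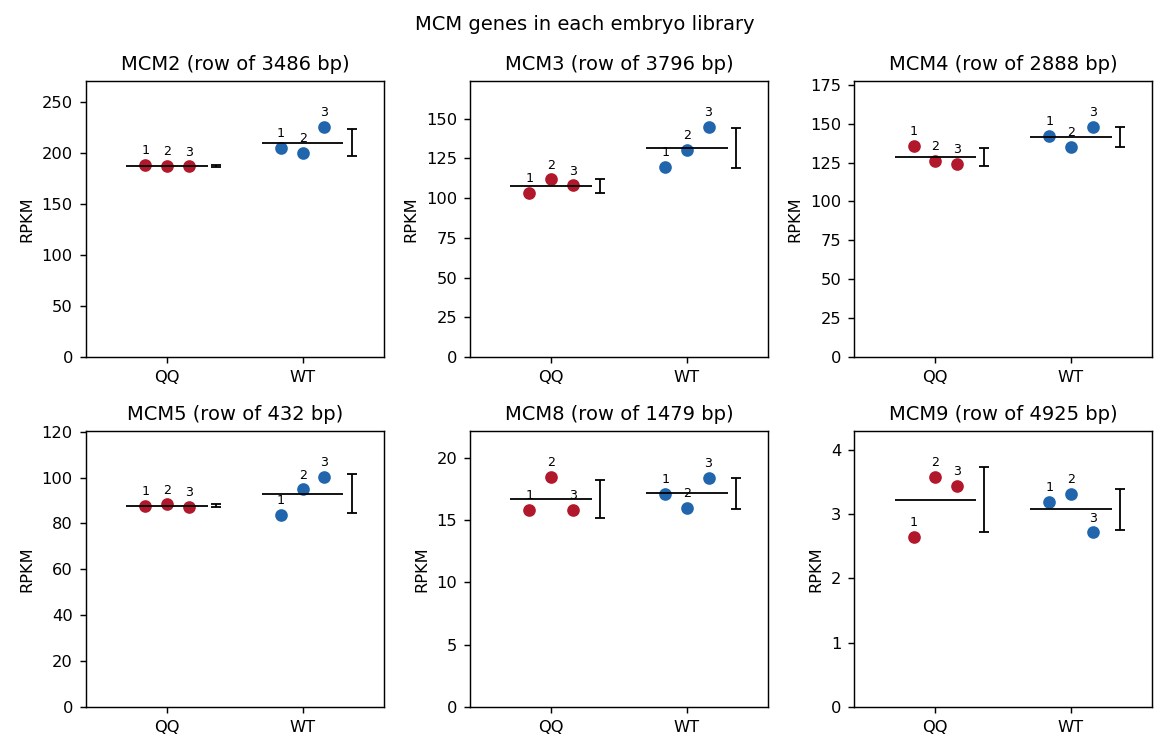
RPKM of each MCM gene (vertical axes, from 0) in the QQ (red, left) and WT (blue, right) libraries; numbers are replicates, lines are means and bars are 1 SD (n = 3). MCM2 and MCM3 lie below every WT library in all 3 QQ libraries, while the groups of the other 4 genes overlap.

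MCM4 and MCM5 had lower means in QQ embryos with groups that overlapped. MCM4, a ring subunit that CDC7 phosphorylates, stood at 135.4, 125.96 and 124.2 RPKM in QQ replicates 1 to 3, and at 141.8, 135.1 and 147.8 RPKM in WT replicates 1 to 3. QQ replicate 1 was as high as WT replicate 2, and the other QQ libraries lay below all WT libraries. Its log2 fold change was -0.23 ± 0.11 (SE), or -15.0% with a 95% interval from -28.7% to 1.30% (edgeR, adjusted p = 0.263).

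MCM5, whose contact with MCM2 forms in yeast the gate through which the ring opens around DNA, is held here by a row of only 432 bp, a fragment of the gene. It stood at 87.7, 88.3 and 87.2 RPKM in QQ replicates 1 to 3, and at 83.6, 94.8 and 100.3 RPKM in WT replicates 1 to 3. The QQ libraries were nearly equal and lay inside the WT range, whose low end was WT replicate 1. The log2 fold change was -0.18 ± 0.13 (SE), with a 95% interval of -28.0% to 8.20% (edgeR, adjusted p = 0.419). A second MCM5 row of 1549 bp, described as a minichromosome maintenance complex component and so outside the rule, held more reads. It stood at 62.9, 53.7 and 57.8 RPKM in QQ and at 60.6, 63.6 and 80.4 RPKM in WT replicates 1 to 3, with a log2 fold change of -0.33 ± 0.15 (edgeR, adjusted p = 0.254). Here too the groups overlapped and WT replicate 3 was the highest. Without WT replicate 3 the log2 fold change was -0.096 in the 432 bp row and -0.16 in the 1549 bp row.

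The relatives MCM8 and MCM9 showed no separation in the rows that the rule chose. MCM8 stood at 15.8, 18.5 and 15.8 RPKM in QQ replicates 1 to 3, and at 17.1, 15.95 and 18.4 RPKM in WT replicates 1 to 3. Its highest value came from QQ replicate 2, closely followed by WT replicate 3. The log2 fold change was -0.14 ± 0.14 (SE), and the 95% interval of -27.1% to 13.4% leaves room for a change in either direction (edgeR, adjusted p = 0.573). Without WT replicate 3 the log2 fold change of MCM8 was -0.059. MCM9, in a row of 4925 bp, stood at 2.65, 3.58 and 3.44 RPKM in QQ and at 3.19, 3.32 and 2.72 RPKM in WT replicates 1 to 3. The extremes of both groups were nearly the same. Its log2 fold change was -0.03 ± 0.16 (SE), with a 95% interval of -23.9% to 26.2% (edgeR, adjusted p = 0.927). The sign changed with the library left out and in limma on log2(RPKM + 0.5), which has no TMM scaling. Its mean RPKM was 3.23 ± 0.503 in QQ and 3.07 ± 0.316 in WT embryos (SD, n = 3 each), so the sign also differed between RPKM and the TMM-scaled fit.

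A second MCM9 row went the other way. This row of 3381 bp, described as the DNA helicase MCM9, held 179, 186 and 191 reads in QQ replicates 1 to 3, against 113, 165 and 75 reads in WT replicates 1 to 3. Every QQ library was above every WT library, as in 18.8% of all tested rows, and WT replicate 3 was the lowest. The levels were 4.31 ± 0.355 RPKM in QQ and 2.71 ± 1.08 RPKM in WT embryos (SD, n = 3 each). On the log2 scale this row differed by 0.58 ± 0.26 (SE; edgeR, adjusted p = 0.245). Without WT replicate 3 it was 0.34 (adjusted p = 0.424). The ratio of this row to the 4925 bp row was 1.48, 1.22 and 1.34 in QQ and 0.840, 1.14 and 0.607 in WT replicates 1 to 3. That difference between rows of 1 gene had an exact two-sided permutation p of 0.1, the smallest that 3 against 3 libraries allow, and 0.2 after Benjamini-Hochberg adjustment over the 2 genes with a second row.

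**Figure D2:**
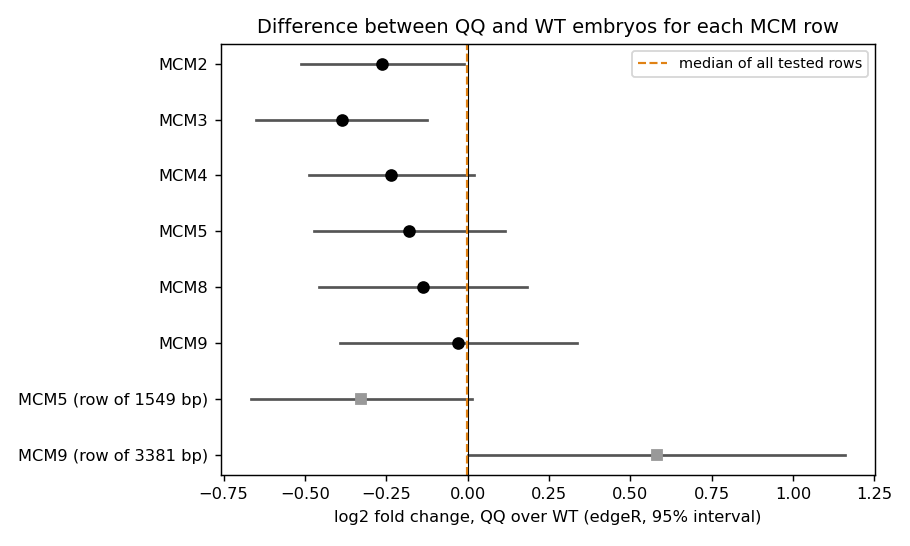
Log2 fold change of QQ over WT (horizontal axis) with its 95% interval for each of the 6 chosen MCM rows (black circles) and the other row of MCM5 and MCM9 (grey squares); the dashed line is the median of all tested rows. All 6 chosen rows lie below 0, from -0.39 for MCM3 to -0.03 for MCM9, and the second MCM9 row lies at 0.58.

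The level of the members, compared per length in RPKM over all 6 libraries, was in the order MCM2, MCM4, MCM3, MCM5, MCM8 and MCM9. MCM2 averaged 199.05 ± 15.1 RPKM, MCM4 135.04 ± 9.05, MCM3 119.6 ± 15.5 and MCM5 90.3 ± 6.11 RPKM (SD, n = 6). MCM8 followed at 16.9 ± 1.27 RPKM and MCM9 at 3.15 ± 0.385 RPKM. Each gene exceeded the next in 6 of 6 libraries, but MCM4 exceeded MCM3 by as little as a factor of 1.02, in WT replicate 3, and the ranges of these neighbours overlapped over the libraries. MCM5 was 5.34 times as high as MCM8, and MCM8 5.37 times as high as MCM9. The ring subunits found by the rule thus averaged from 90.3 to 199.05 RPKM, and the recombination pair stood well below them. The low end depends on the row: the 1549 bp row of MCM5 averaged 63.2 ± 9.18 RPKM. Reads covered 97.8% to 98.9% of the MCM2 row and 97.7% to 98.9% of the MCM3 row. They covered 87.8% to 88.7% of the MCM4 row, 75.9% to 78.01% of the MCM5 row and 62.8% to 66.7% of the MCM9 row, so the shorter or less covered rows give less certain levels. Coverage of each of these rows was nearly the same in both genotypes.

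The 6 members took 0.152%, 0.152% and 0.150% of all reads in QQ replicates 1 to 3, against 0.166%, 0.166% and 0.185% in WT replicates 1 to 3. MCM2, MCM3 and MCM4 gave 94.5% to 95.5% of these reads in each library. The WT libraries 1 and 2 were thus close to each other and WT replicate 3 was higher.

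Ratios of members within a library do not depend on how libraries are scaled to each other. They can still carry the trend with abundance that is given below. Rows from 100 to 250 RPKM, the range of MCM2 and MCM3, had a median log2 fold change of -0.19. Rows from 10 to 50 RPKM, the range of MCM8, had a median of -0.02. The part of this trend in the ratios was not tested. The ratio of MCM2 to MCM4 overlapped between the groups, at 1.46 ± 0.0600 in QQ and 1.49 ± 0.0399 in WT libraries (exact two-sided permutation test, n = 3 each, p = 0.7). The ratio of MCM3 to MCM5 was 1.18, 1.27 and 1.24 in QQ replicates 1 to 3, against 1.43, 1.37 and 1.44 in WT replicates 1 to 3. The ratio of MCM3 to MCM8 was 6.54, 6.05 and 6.82 in QQ, against 6.99, 8.16 and 7.86 in WT libraries. In both the QQ libraries lay below all WT libraries, and MCM2 to MCM8 was the only other of the 15 pairs without overlap. The separation of MCM3 to MCM5 depends on the row. With the 1549 bp row of MCM5, a choice added after the values were seen, the ratio was 1.64, 2.08 and 1.87 in QQ and 1.97, 2.05 and 1.80 in WT replicates 1 to 3, with overlap (exact two-sided permutation test, p = 0.7). MCM2 to MCM3 was 1.74 ± 0.0777 in QQ and 1.61 ± 0.0972 in WT libraries, with overlap. Each of the 3 separate pairs had an exact two-sided permutation p of 0.1, the smallest possible with 3 against 3, and 0.5 after Benjamini-Hochberg adjustment over the 15 pairs.

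**Figure D3:**
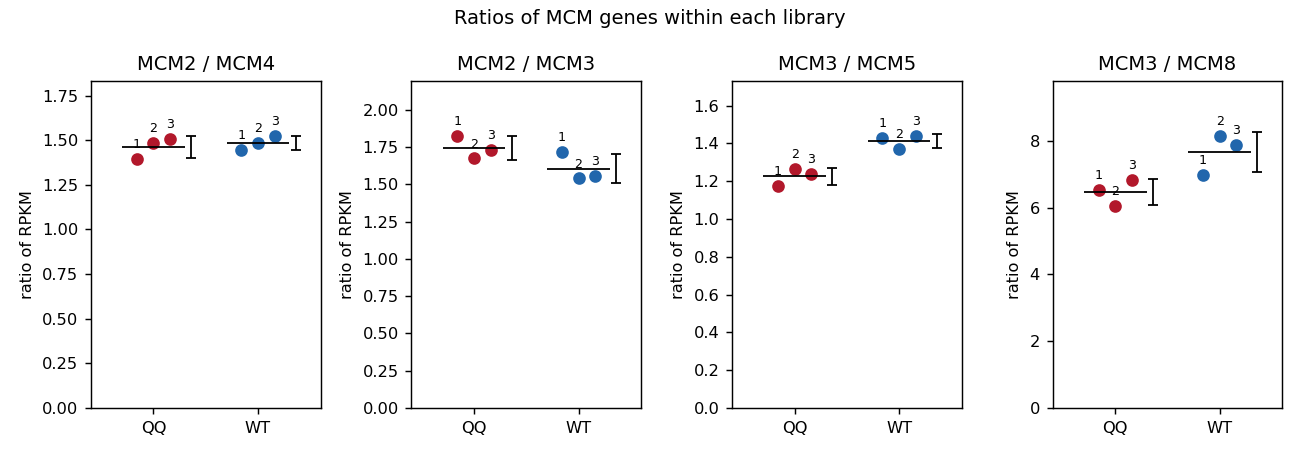
Ratio of the RPKM of 2 MCM genes (vertical axes, from 0) in each QQ (red, left) and WT (blue, right) library; lines are means and bars are 1 SD (n = 3). MCM2 to MCM4 overlaps between the groups, as does MCM2 to MCM3, and MCM3 to MCM5 (432 bp row) and MCM3 to MCM8 are lower in all QQ libraries; with the 1549 bp row of MCM5 the groups overlap.

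Read against all genes, the members were not singled out by the test. Of the 6 members 0 passed edgeR at an adjusted p of 0.05, as did 0 of all 13957 tested rows (0%), and DESeq2 called 0 of the 6. DESeq2 called 0.738% of all rows higher and 0.0573% lower in QQ embryos. At an unadjusted edgeR p under 0.05, 2 of 6 members were lower in QQ embryos, where 9.29% of all tested rows were, and 0 were higher, where 11.0% were; in either direction this made 2 of 6, against 20.3%. The groups were separate with QQ below WT for 2 of 6 members and for 9.07% of tested rows, and with QQ above WT for 0 members and 18.8% of tested rows. With 1 library left out, the edgeR count of members lower at an unadjusted p under 0.05 was 1 to 3. It was 1 without QQ replicate 2, QQ replicate 3, WT replicate 1 or WT replicate 3, against 3.05%, 2.70%, 8.33% and 5.15% of all rows. It was 3 without QQ replicate 1, against 10.4% of all rows, and 2 without WT replicate 2, against 11%. All 6 members had a log2 fold change below 0, as did 50.3% of tested rows. By mean RPKM, which has no TMM scaling, 5 of 6 members and 39.5% of tested rows were lower in QQ embryos. WT replicate 3 was the highest library for 4 of 6 members and for 25.3% of tested rows. The median log2 fold change of the members was -0.21, and that of all tested rows was -0.0027.

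The background moved with abundance, and most members are abundant. Among the 547 tested rows with a mean from 100 to 250 RPKM, which hold MCM2, MCM3 and MCM4, 77.1% were lower in QQ embryos; the median of their log2 fold changes was -0.19 and the quartiles were -0.32 and -0.03. In that range 27.6% of rows were lower at an unadjusted p under 0.05, the groups were separate with QQ below WT in 24.7%, and WT replicate 3 was the highest in 53.2%. MCM2 and MCM4 lay between the median and the lower quartile of their range, and MCM3 lay below that quartile. Among the 936 rows from 50 to 100 RPKM, the range of MCM5, the median was -0.14, against -0.18 for MCM5. Rows from 10 to 50 RPKM, the range of MCM8, had a median of -0.02, and rows under 10 RPKM, the range of MCM9, had a median of 0.08. These ranges were set after the values were seen.

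**Figure D4:**
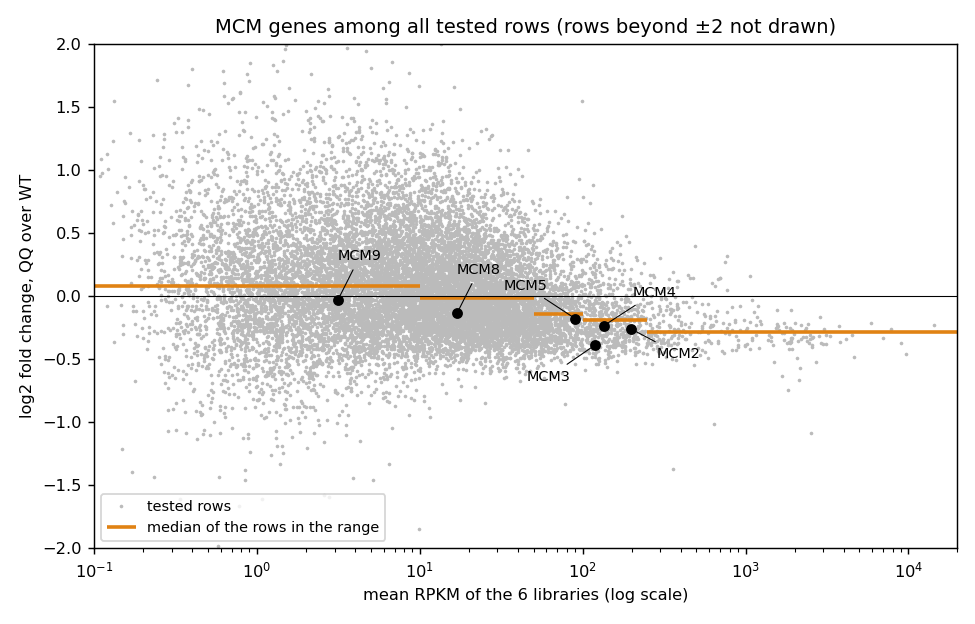
Log2 fold change of QQ over WT (vertical axis) against the mean RPKM of the 6 libraries (horizontal log axis) for all tested rows (grey), with the MCM genes in black and the median of the rows in each abundance range in orange. The medians run from 0.08 under 10 RPKM to -0.28 above 250 RPKM, and MCM2, MCM4 and MCM5 lie below the median of their range but within its quartiles.

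Genes that recognise origins and load the ring showed no common direction. In the TMM-scaled fit, which all counts of lower and higher genes below use unless RPKM is named, 4 of 9 tested genes were lower and 5 higher in QQ than in WT embryos; the median on the log2 scale was 0.0014, and 0 passed edgeR (0 at an unadjusted p under 0.05). By mean RPKM 3 were lower and 6 higher. The loading factor CDC6 stood at 26.1 ± 2.94 RPKM in QQ and 24.2 ± 2.66 RPKM in WT embryos, and CDT1 at 33.998 ± 2.74 RPKM in QQ and 34.6 ± 5.59 RPKM in WT embryos (SD, n = 3 each). Geminin, GMNN, the inhibitor of CDT1, stood at 47.8 ± 4.59 RPKM in QQ and 46.96 ± 5.29 RPKM in WT embryos. All 3 overlapped between genotypes. Among the subunits of the origin recognition complex, ORC1 had the lowest log2 fold change, -0.42 ± 0.22, from 68 to 119 reads per library, and ORC6 had -0.32 ± 0.17. ORC2 had the highest, 0.28 ± 0.22, while ORC3 lay at 0.0014 ± 0.13, ORC4 at 0.15 ± 0.12 and ORC5 at 0.07 ± 0.14. The list of MCM relatives and their binding protein had 2 lower and 2 higher genes of 4 tested, with a median of 0.04 and 0 past edgeR; by mean RPKM 1 was lower and 3 higher. Beside MCM8 and MCM9 it holds 2 more: MCM10, which joins the activated helicase, had 0.19 ± 0.14, and MCMBP, a binding protein of MCM subunits, 0.12 ± 0.11. The edgeR adjusted p of these genes lay at 0.289 or above.

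Genes that activate the loaded ring were evenly divided in the fit: 6 of 12 tested had lower and 6 higher values. The median was 0.0014 and 0 passed the test. At an unadjusted edgeR p under 0.05, 1 was lower, against 9.29% of all tested rows. By mean RPKM 4 were lower and 8 higher. GINS2, a subunit of the GINS complex, stood at 45.1, 45.3 and 44.6 RPKM in QQ replicates 1 to 3, against 48.3, 54.0 and 60.2 RPKM in WT replicates 1 to 3. The groups were separate with QQ below WT, as in 9.07% of all tested rows. The log2 fold change of GINS2 was -0.37 ± 0.14 (edgeR, adjusted p = 0.233). GINS4 had -0.31 ± 0.15 with overlap, and GINS1 and GINS3 had 0.10 ± 0.13 and -0.0027 ± 0.19. The kinase pair CDC7 and DBF4 lay at 0.03 ± 0.14 and 0.0055 ± 0.13. DBF4B, from a row of 462 bp, lay at -0.27 ± 0.21. CDC45 had only 7 to 14 reads per library in its row, too few for a useful level. TOPBP1, TICRR, MTBP and DONSON, which help to assemble the active helicase, lay between -0.05 and 0.09.

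At the replication fork 20 of 28 tested genes had lower and 8 higher values, with a median of -0.15 and 0 past the test. At an unadjusted edgeR p under 0.05, 5 were lower. Of all tested rows 50.3% were lower, and 9.29% were lower at that p. Among rows from 50 to 100 RPKM, the range of POLA2 and LIG1, these shares were 70.6% and 23.2%. From 10 to 50 RPKM, the range of POLA1 and POLE, they were 52.3% and 9.80%. In limma with array weights the median of the fork genes was 0.0074. By mean RPKM 18 were lower and 10 higher. The sliding clamp PCNA, at 173.7 ± 13.2 RPKM in QQ and 176.7 ± 19.9 RPKM in WT embryos, had a level near that of MCM2, and its groups overlapped. The subunits POLA2 of DNA polymerase alpha and POLD3 of polymerase delta had log2 fold changes of -0.36 ± 0.14 and -0.43 ± 0.18, and DNA ligase 1, LIG1, had -0.30 ± 0.13. Other polymerase subunits, picked after their values were seen, had values on the other side: POLA1, the catalytic subunit of polymerase alpha, had 0.32 ± 0.16, and POLE, that of polymerase epsilon, had 0.43 ± 0.21 with every QQ library above every WT library. Of all tested rows 18.8% were separate in that direction. The nucleotide supply list had 4 lower and 4 higher genes, and by mean RPKM 2 lower and 6 higher. Its median was -0.02, and 0.07 in limma on log2(RPKM + 0.5), which has no TMM scaling. In this list the dUTPase DUT had -0.35 ± 0.16 and SAMHD1, which degrades deoxynucleotides, had 0.38 ± 0.29. Of 27 S phase regulators 12 had lower and 15 higher values, with a median of 0.06, and of -0.0069 with the length trend removed; by mean RPKM 5 were lower and 22 higher. Among them E2F1 had -0.36 ± 0.16, cyclin D3, CCND3, -0.47 ± 0.19, cyclin E2, CCNE2, 0.26 ± 0.17, the checkpoint kinase ATR 0.42 ± 0.17 and WEE1, which restrains CDK1, 0.24 ± 0.099. None of these genes passed edgeR (adjusted p of 0.233 or above).

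Mitotic genes gave values on both sides: 9 of 12 tested had lower and 3 higher values (median -0.17, 0 past edgeR). At an unadjusted edgeR p under 0.05, 4 were lower and 3 higher, against 9.29% and 11.0% of all tested rows. The lower share was 9.80% among rows from 10 to 50 RPKM, the range of CDC20. It was 23.2% among rows from 50 to 100 RPKM, the range of AURKB. The groups of these 7 genes did not overlap, except for BUB1B. Of all tested rows 9.07% were separate with QQ below WT and 18.8% with QQ above WT. The median of the mitotic genes lay between -0.073 and -0.056 in the limma fits, and by mean RPKM 8 were lower and 4 higher. CDC20, an activator of the anaphase-promoting complex, and the kinase AURKB had -0.41 ± 0.13 and -0.36 ± 0.14, with QQ below WT in every library. MKI67, the gene of the proliferation antigen Ki-67, stood at 3.04, 3.08 and 2.73 RPKM in QQ replicates 1 to 3, against 2.43, 2.01 and 1.62 RPKM in WT replicates 1 to 3. Reads covered only 6.52% to 7.84% of this MKI67 row of 9708 bp, so its level is uncertain. TOP2A, topoisomerase 2-alpha, stood at 306, 377 and 327 RPKM in QQ and at 270, 291 and 207 RPKM in WT replicates 1 to 3. Both genes were higher in every QQ library, with log2 fold changes of 0.46 ± 0.17 and 0.30 ± 0.13 (edgeR, adjusted p = 0.233 and 0.244). Over all 98 tested replication and cell cycle genes other than the members, 55 had lower and 43 higher values in the fit, with a median of -0.06, and by mean RPKM 40 were lower and 58 higher. Of all tested rows 50.3% were lower in the fit and 39.5% by mean RPKM.

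**Figure D5:**
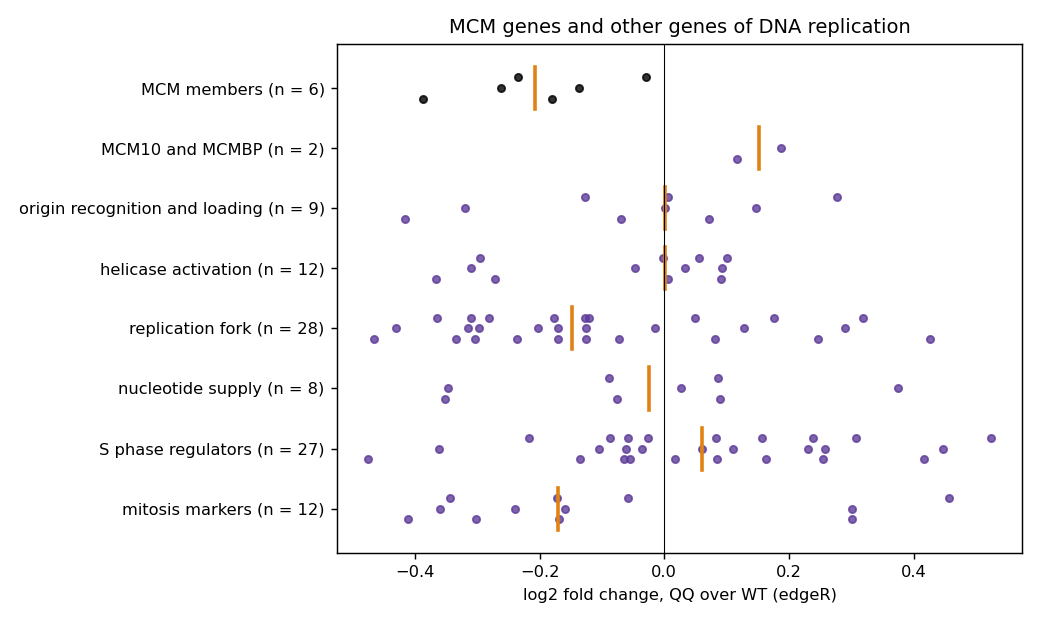
Log2 fold change of QQ over WT (horizontal axis) for each tested gene (points) of the MCM members and of 7 lists of replication and cell cycle genes, with the members left out of the lists; orange bars are medians. The members all lie below 0, the loading and activation lists are centred near 0, and the fork and mitosis lists have medians of -0.15 and -0.17.

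Among 4795 rows with a symbol and a mean of at least 5 RPKM, those with the profile over the 6 libraries most like the mean log2 RPKM of the members were TMED3, EXOSC5, FKBP4 and NTHL1, with Pearson r of 0.989, 0.985, 0.981 and 0.975. WDR91, PFDN4, SNRPN and C4H1orf52 came next, with r from 0.968 to 0.970. All 8 had lower values in QQ embryos, with log2 fold changes from -0.52 for EXOSC5 to -0.19 for WDR91, and 0 passed edgeR. They were chosen for likeness to a profile that was itself lower on average in QQ embryos, so this direction is no separate result. In all 8, WT replicate 3 was the highest library and QQ replicate 1 the lowest. The mean of the members had the same extremes (0.11 and -0.11), while QQ replicate 2 and WT replicate 1 were nearly equal (0.0043 and 0.011). The TMED3 row has 225 bp and 47 to 75 reads per library. None of the 8 is in the replication lists. Of the members themselves MCM3 followed the mean most closely (r = 0.955) and MCM9 least (r = -0.01). The rows share their libraries, and 117 of them had an r over 0.9, so this likeness is only a description. The SNRPN row is described as small nuclear ribonucleoprotein B', a close paralog, so its identity is uncertain.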

How the data were processed

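Total RNA of each embryo was made into a TruSeq RNA library for Illumina sequencing, per the labels' protocols. The genome build is Sscrofa10.2 in the submitters' processing notes. Which aligner and counter were run, and whether strand was used, is not given in the sources used here. Per the file headers, the authors deposited for each Ensembl transcript its uniquely mapped read count, the percent of its length covered and its RPKM; a dash was read as 0. Columns summed to the header totals, and RPKM followed from count, length and total (largest relative gap 1.29e-07). No litter or dam is labelled, so each p-value speaks only of the spread among these samples, part of which may be technical.

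The counts were tested with edgeR 4.0.16 (R 4.3.3; TMM factors 0.933 to 1.06, default expression filter, quasi-likelihood test, Benjamini-Hochberg adjustment over 13957 rows, threshold 0.05). Intervals are 95% intervals of the fit, and SE is the log2 fold change over the square root of F. Alternatives used DESeq2 1.42.0, limma 3.58.1 on log2(RPKM + 0.5), other filters and scalings, the replicate number as a block and each library left out. In simulated counts of this comparison, run on 13805 rows, edgeR recovered 10.4%, 62.7% and 98.5% of genes changed 1.5-, 2- and 4-fold, with 2 false calls.

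Symbols came from pig protein accessions (7185 rows), pig KEGG genes (2277 rows) or deposited descriptions (75 rows), through a gene table of Sscrofa11.1. The values of a listed gene are those of its row with most reads. Those of a member are from the row found by the description rule, which for MCM5 was the row with fewer reads. Of 109 listed genes in 7 lists, 100 had a row. Members and lists were chosen with earlier results of these data known. Named outside the members are the 3 lists nearest to licensing in full, the 3 smallest p of each other list, PCNA, MKI67, E2F1, CCNE2 and TOP2A, and the 8 rows most like the members, except 1 gene that is not reported here; ORC and GINS ranks, POLA1, POLE, BUB1, BUB1B and RBL1 were picked after seeing values. No covariate was used. Every pair of libraries differed by more than counting noise (chi-square per degree of freedom at least 7.54). Figures used matplotlib 3.10.9.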

Additional observations from a re-analysis of the deposited data

How the results depend on the processing

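Of the 6 members 0 were called under any alternative run. MCM2, MCM3, MCM4 and MCM8 had lower values in QQ embryos under all 22 alternatives, MCM3 with log2 fold changes from -0.49 to -0.16 and adjusted p from 0.0754 to 0.669. MCM5 turned to 0.040 in limma with array weights. MCM9 turned to 0.054 in limma on log2(RPKM + 0.5), to 0.046 with array weights, to 0.065 and 0.016 (range with 1 library left out -0.091 to 0.065) in edgeR without QQ replicate 1 or WT replicate 2, and to 0.079 and 0.019 in DESeq2 without the same libraries. The log2 ratio of MCM3 to MCM5 was -0.21 with the chosen MCM5 row and -0.06 with the other row. The median of the members was -0.11 in limma, -0.073 with array weights, and -0.26 to -0.14 with 1 library left out. The causes were not tested.

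Over all rows, DESeq2 called 111 (103 higher, 8 lower) and limma with array weights 1322 (1079 higher, 243 lower); with 1 library left out edgeR called 0 to 3 and DESeq2, in fits added after seeing the data, 0 to 848: 152, 4 and 0 without QQ replicates 1, 2 and 3, and 51, 848 and 171 without WT replicates 1, 2 and 3. In the replication lists array weights called 3 genes higher (TOP2A, WEE1 and BUB1), and DESeq2 without single libraries 0 to 2 (CDC20 lower and RBL1 higher, without WT replicate 2). The second MCM9 row was called in 1 of 22 alternatives, DESeq2 without WT replicate 2 (0.90, adjusted p = 0.0257). Limma on log2(RPKM + 0.5), scaled by library totals alone, moved unadjusted calls over all rows to 2099 higher and 640 lower. Removal of the length trend moved them to 1257 higher and 1855 lower. The members lower at an unadjusted p under 0.05 numbered 1 with the block, against 5.6% of all rows. They numbered 1 in limma on log2(RPKM + 0.5), against 4.59%, and 1 in limma with quantile normalization, against 9.77%. They numbered 3 in limma with array weights, against 9.54%, and 3 with the length trend removed, against 13.3%.

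With the replicate number as a block, MCM2 had -0.26 and MCM3 -0.38 (adjusted p = 0.337 and 0.294) and 0 rows were called. No label says that the numbers pair the embryos. The deviations of same-numbered libraries correlated at -0.21, 0.244 and -0.07, and those of differently numbered libraries at -0.193 to 0.258. The deviations of the 3 libraries of a group sum to 0, so these values cannot decide whether embryos were paired. Differences of the size seen in the members are below 1.5-fold, with 3 libraries a group. In simulated counts edgeR recovered 10.4% of genes changed 1.5-fold, and DESeq2 35.8% with 23 false calls in its run. Those genes were drawn from rows of many levels, and the counts held no shared shift of a library. The recovery of the abundant members was thus not simulated, and a change of their size was not shown to be detectable.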
